A study of Mus musculus with 8 samples.

Results

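The genes described here are 9 transcription factors that pattern the forebrain and the eye field, Nkx2-1, Vax1, Vax2, Rax, Six3, Six6, Lhx2, Pax6 and Hesx1. They were chosen by symbol from the 41709 symbols of the expression table, and all 9 were found. The samples were mouse embryos, each sequenced whole on embryonic day 9.5, 4 of them homozygous for the K399A substitution in Smoothened (Smo), called mutants here, and 4 with wild-type Smo (WT). All came from crosses of parents heterozygous for the substitution, several litters were used, and the litter of each embryo is not given. The mutation was present in every cell of the mutants and not in a chosen tissue, and each library held 1 whole embryo.

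Smoothened carries the Hedgehog signal across the membrane and thereby controls the GLI transcription factors. In the anterior embryo, Sonic hedgehog from the midline tissue beneath the brain and from the ventral forebrain itself is needed to form the hypothalamus and the optic stalks and to split the single eye field into a pair of eyes. Rax, Six3, Six6, Lhx2 and Pax6 are the eye field genes, Vax1 and Vax2 mark the optic stalk and the ventral optic cup, Nkx2-1 marks the hypothalamic primordium, and Hesx1 acts in the anterior forebrain and in the pituitary rudiment. All 9 encode proteins with a homeodomain, the DNA-binding fold of this superfamily.

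Levels are given as TPM, transcripts per 1000000 transcripts of a library, the deposited unit, which corrects for gene length, so that levels of different genes can be compared. The libraries held 60.0 to 61.47 M reads each, a depth worked out from the spacing of low TPM values. Differences were tested with limma on log2(TPM + 1) over 13596 genes, with p-values adjusted over all of them, and a gene passes at an adjusted p under 0.05. Median-ratio size factors were 0.914 and 0.922 in mutants 3 and 4 and 1.01 to 1.05 in the other libraries, and results are therefore also given without these mutants. Yolk sac endoderm transcripts differed between the libraries too, with a summed level of 16 markers (among them Afp, Ttr and Apoa1) of 1412, 879.6, 240.4 and 151.3 TPM in mutants 1 to 4, against 16.5, 43.5, 270.6 and 22.4 TPM in WT 1 to 4.

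Of the 9 genes, 8 had a lower mean level in mutants than in WT embryos and 1, Hesx1, had a higher one, where 62.3% of all genes tested had a log2 fold change below 0. None passed the adjusted threshold, which 0 of all 13596 genes passed (smallest adjusted p = 0.203), and the adjusted p-values of the 9 genes lay between 0.281 and 0.574. At an unadjusted p under 0.05 there were 7 of the 9, all lower in mutants, where 8.0% of all genes tested were lower and 5.55% higher at the same p. Vax2, one of the 7, met the expression filter only through the WT embryos and so had to differ. In RNA of whole embryos, fewer forebrain cells and less RNA per forebrain cell cannot be told apart. The median log2 fold change of the 9 genes was -0.60, against -0.04 over all genes tested. Every mutant lay below every WT embryo for 4 of the 9 genes, Nkx2-1, Vax2, Six3 and Lhx2, against 3.82% of all genes tested, and every mutant lay above every WT embryo for none of the 9, against 3.63% of all genes (7.46% in either direction). Over all genes the balance of directions depended on the scaling, since 902 were lower and 1223 higher at an unadjusted p under 0.05 with median-ratio scaling, in place of 1088 and 754. The same 7 of the 9 genes stood at that p in both.

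The counts also depended on which mutants were included. Without mutants 3 and 4, the 8 genes were still lower on average, but 4 of the 9 stood at an unadjusted p under 0.05, Nkx2-1, Vax2, Rax and Lhx2, where 2.65% of all genes tested were lower at that p, and limma called 3 other genes (0.0221%). Without mutants 1 and 2, a choice made after seeing the data, 33.5% of all genes were lower at an unadjusted p under 0.05. With these 2 mutants left out, 24.8% of all genes passed an adjusted p under 0.05, 22.7% of all genes being lower, and among the lower ones were 7 of the 9, all but Rax and Hesx1. Vax2, counted in both settings, met the expression filter only through the WT embryos.

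**Figure D1:**
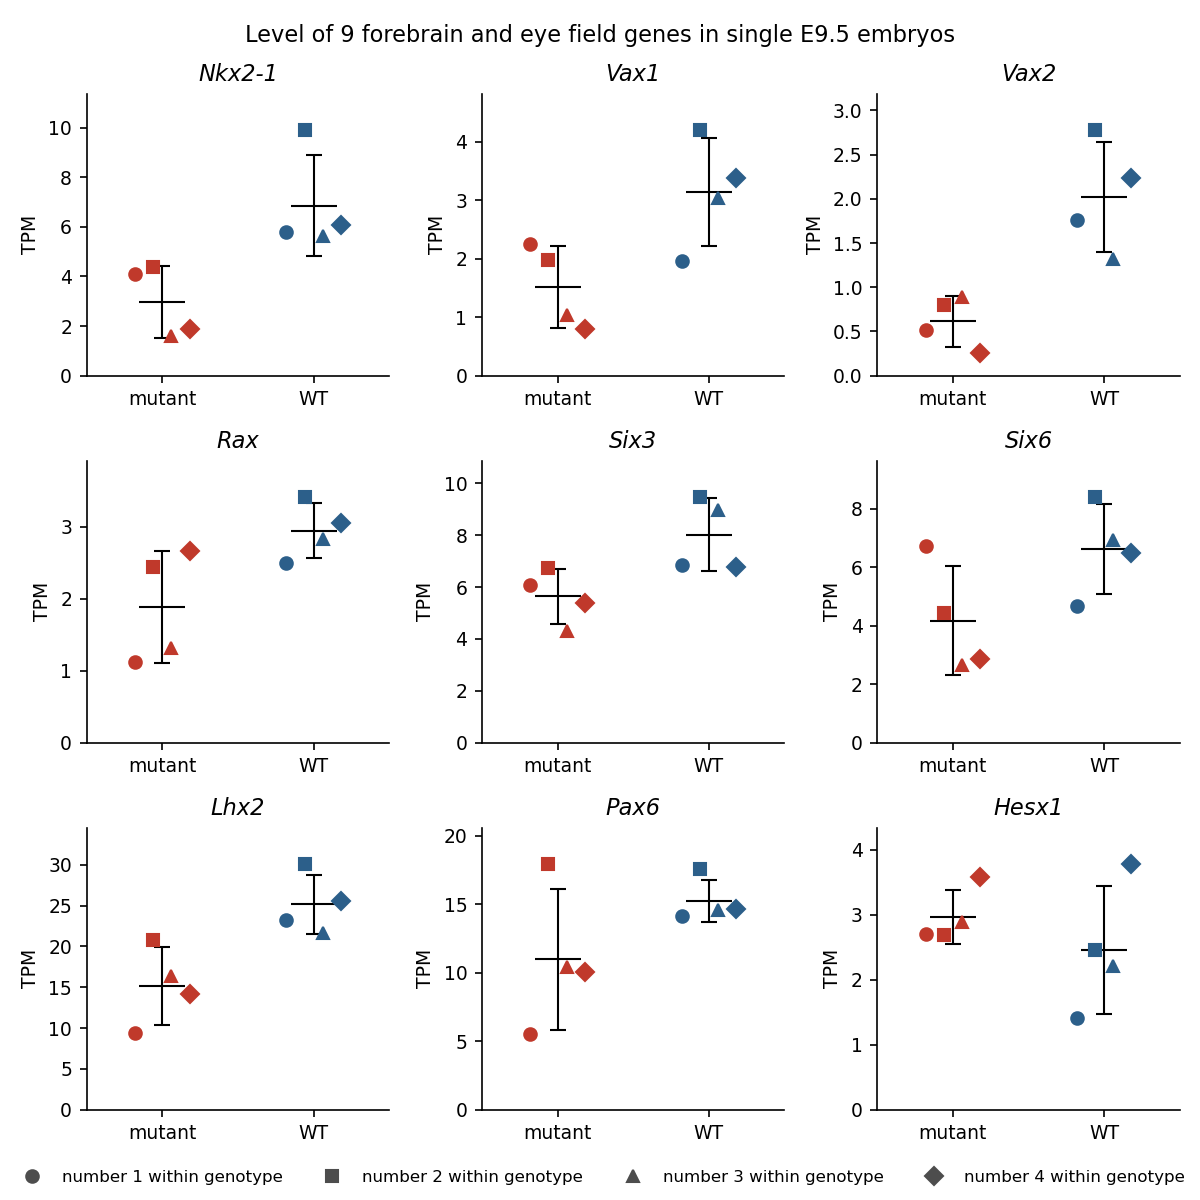
TPM of each gene (vertical axes, starting at 0) in the 4 mutant and the 4 WT embryos. Points are single embryos, with symbols for their number within the genotype, and bars are the mean and SD. Mutant and WT points do not overlap for Nkx2-1, Vax2, Six3 and Lhx2.

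Among the ventral genes, Nkx2-1 (chromosome 12, 56531958 to 56536908, build GRCm38), which specifies the hypothalamus and is also active in thyroid and lung, was at 4.09, 4.37, 1.59 and 1.88 TPM in mutants 1 to 4, against 5.81, 9.89, 5.62 and 6.07 TPM in WT 1 to 4. The highest mutant lay below the lowest WT embryo, and mutants 3 and 4 were lower than mutants 1 and 2. Its mean was 2.98 ± 1.45 TPM in mutants and 6.85 ± 2.04 TPM in WT (SD, n = 4 each), the mutant mean being 43.6% of the WT mean. On the log2 scale mutants were lower than WT, at -1.02 ± 0.27 (SE), with an adjusted p of 0.281 in limma and an exact permutation p of 0.0286, the smallest that 4 against 4 allows. With a pseudocount of 1 TPM this log2 fold change was below that of Vax2, at -0.90, but with a pseudocount of 0.1 TPM the values were -1.26 for Nkx2-1 and -1.63 for Vax2. Without mutants 3 and 4 the log2 fold change was -0.55.

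Vax2 (chromosome 6, 83711264 to 83738313), which directs ventral identity in the optic cup, was at 0.517, 0.797, 0.888 and 0.254 TPM in mutants 1 to 4, against 1.76, 2.78, 1.33 and 2.24 TPM in WT 1 to 4. Here too no mutant reached the lowest WT embryo, and mutant 4 was the lowest of all. The mutant mean of 0.614 ± 0.287 TPM was 30.3% of the WT mean of 2.02 ± 0.624 TPM (SD, n = 4 each), the smallest such share among the 9. Vax2 had a log2 fold change of -0.90 ± 0.18 (SE; limma adjusted p = 0.281). On reads recovered from the TPM, without a pseudocount of 1 TPM, limma voom gave -1.77. Vax2 rested on 12, 18, 22 and 6 reads in mutants and on 41, 64, 31 and 53 in WT, and it met the expression filter of 1 TPM in 4 embryos only through the WT embryos.

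Vax1 (chromosome 19, 59166187 to 59170056), the paralog that acts in the optic stalk and basal forebrain, was at 2.25, 1.97, 1.03 and 0.799 TPM in mutants 1 to 4, against 1.96, 4.19, 3.04 and 3.38 TPM in WT 1 to 4. The groups overlapped through WT 1, which lay below mutants 1 and 2. Its means were 1.51 ± 0.706 TPM in mutants and 3.14 ± 0.928 TPM in WT (SD, n = 4 each), for a log2 fold change of -0.74 ± 0.23 (SE; limma adjusted p = 0.299). The value was -1.12 on recovered reads, of which there were 17 to 87 per library, and -0.39 without mutants 3 and 4.

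Of the eye field genes, Lhx2 (chromosome 2, 38339281 to 38369733), a LIM homeodomain factor required for the optic vesicle to become an optic cup and for the cerebral cortex, was the most abundant of all 9. It stood at 9.35, 20.8, 16.4 and 14.1 TPM in mutants 1 to 4, against 23.3, 30.1, 21.6 and 25.6 TPM in WT 1 to 4. The groups did not overlap, although mutant 2 lay just under WT 3. The mutant mean of 15.2 ± 4.77 TPM was 60.3% of the WT mean of 25.1 ± 3.66 TPM (SD, n = 4 each), a log2 fold change of -0.73 ± 0.20 (SE; limma adjusted p = 0.281). Lhx2 was carried by 768 to 2452 reads per library.

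Six3 (chromosome 17, 85613608 to 85629302), which holds back WNT signalling in the anterior neural plate and supports Shh expression in the forebrain, was at 6.09, 6.75, 4.32 and 5.39 TPM in mutants 1 to 4, against 6.85, 9.46, 8.99 and 6.79 TPM in WT 1 to 4. The groups were separated by a narrow gap, between mutant 2 and WT 4. Six3 averaged 5.64 ± 1.04 TPM in mutants and 8.02 ± 1.40 TPM in WT (SD, n = 4 each), a log2 fold change of -0.44 ± 0.15 (SE; limma adjusted p = 0.310), and -0.27 without mutants 3 and 4.

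Six6 (chromosome 12, 72939892 to 72944899), a close relative of Six3 that acts in retina and pituitary progenitors, was at 6.71, 4.43, 2.66 and 2.87 TPM in mutants 1 to 4, against 4.68, 8.38, 6.94 and 6.47 TPM in WT 1 to 4. Mutant 1 lay within the WT range, while mutants 2, 3 and 4 lay below it. Means were 4.17 ± 1.87 TPM in mutants and 6.62 ± 1.53 TPM in WT (SD, n = 4 each), and the log2 fold change of -0.60 ± 0.25 (SE; limma adjusted p = 0.343) was -0.21 without mutants 3 and 4.

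Rax (chromosome 18, 65928277 to 65939787), which is needed for the optic vesicles to form, was at 1.12, 2.44, 1.32 and 2.66 TPM in mutants 1 to 4, against 2.50, 3.41, 2.82 and 3.05 TPM in WT 1 to 4. Mutants 1 and 3 were low, and mutants 2 and 4 lay near or within the WT range. Averages were 1.88 ± 0.777 TPM in mutants and 2.94 ± 0.383 TPM in WT (SD, n = 4 each), with a log2 fold change of -0.49 ± 0.19 (SE; limma adjusted p = 0.330).

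Pax6 (chromosome 2, 105668900 to 105697364), required for lens and retina and also active in the hindbrain and spinal cord, was at 5.53, 17.9, 10.5 and 10.0 TPM in mutants 1 to 4, against 14.2, 17.6, 14.6 and 14.6 TPM in WT 1 to 4. Mutant 2 had the highest level of all 8 embryos and mutant 1 the lowest, and the SD among mutants exceeded the difference between the means of the genotypes. The means were 10.99 ± 5.13 TPM in mutants and 15.2 ± 1.56 TPM in WT (SD, n = 4 each), a log2 fold change of -0.53 ± 0.26 (SE; limma adjusted p = 0.397). This fold change was -0.28 without mutant 1 and -0.79 without mutant 2.

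Hesx1 (chromosome 14, 26994416 to 27002329), a repressor of the anterior forebrain and Rathke's pouch, was at 2.70, 2.69, 2.89 and 3.58 TPM in mutants 1 to 4, against 1.41, 2.46, 2.21 and 3.78 TPM in WT 1 to 4. The 4 mutants all lay above the WT mean and inside the WT range. With means of 2.96 ± 0.419 TPM in mutants and 2.46 ± 0.984 TPM in WT (SD, n = 4 each), it had a log2 fold change of 0.23 ± 0.19 (SE; limma adjusted p = 0.574), with a 95% confidence interval from -0.20 to 0.66. It was 0.07 without WT 1 and 0.40 without WT 4. Of the 9 genes only Hesx1 had a fold change above 0.

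**Figure D2:**
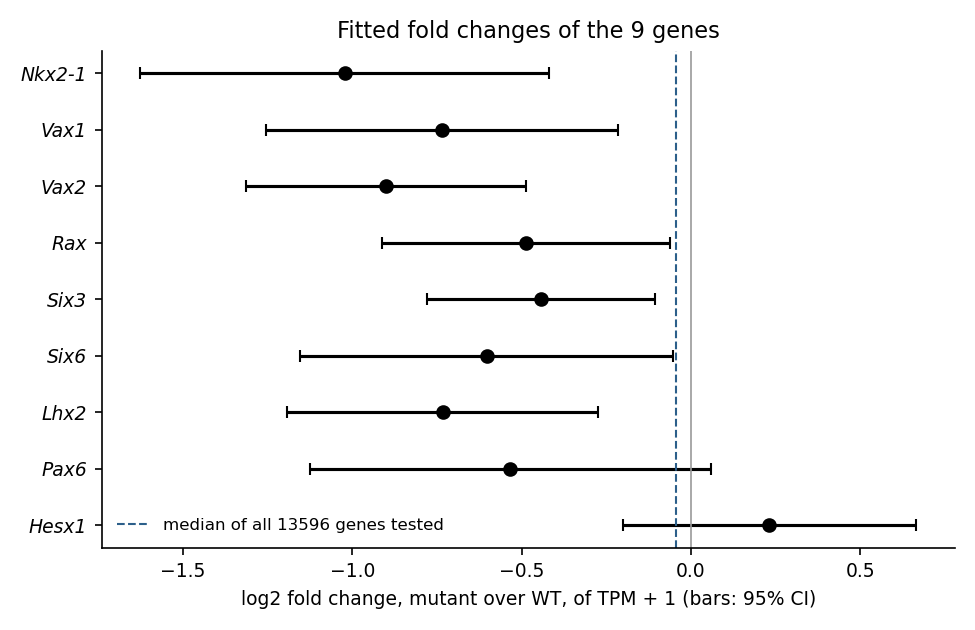
Log2 fold change of mutant over WT on the scale of TPM + 1 (horizontal axis) for the 9 genes, with 95% confidence intervals from limma. The dashed line is the median of all 13596 genes tested, at -0.04, and only Pax6 and Hesx1 have intervals that include 0.

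The mutants did not share one order of severity. Mutant 1 had the lowest level of all 8 embryos for 3 genes, Lhx2, Pax6 and Rax, mutant 3 for Nkx2-1, Six3 and Six6, and mutant 4 for Vax1 and Vax2. Mutant 2 was lowest for none of the 9 and was the highest mutant for 4. On the log2(TPM + 1) scale, mutant 1 lay 1.33 below the WT mean for Lhx2 and 1.31 below for Pax6, but was 0.04 above it for Six6. Mutants 3 and 4 deviated from the WT mean by -1.57 and -1.41 for Nkx2-1 and by -1.03 and -0.95 for Six6, and they were also the lowest for Vax1. Among WT embryos, WT 2 was the highest for 8 of the 9 genes, and WT 1 was the lowest for 5.

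**Figure D3:**
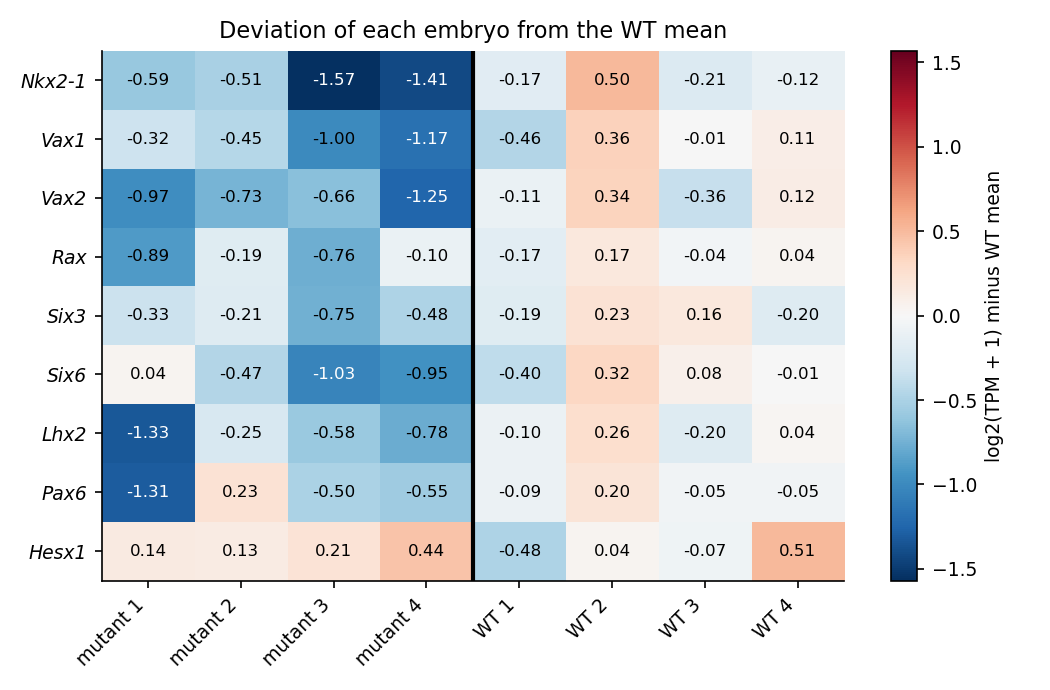
Log2(TPM + 1) of each gene (rows) in each embryo (columns, mutants left of the line) minus the WT mean, with red above and blue below it. Mutants 3 and 4 are lowest for Nkx2-1, Vax1 and Six6, and mutant 1 for Lhx2, Pax6 and Rax.

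Ratios within an embryo show the same unequal pattern. The ratio of Nkx2-1 to Lhx2 in TPM was 0.437, 0.210, 0.0969 and 0.133 in mutants 1 to 4, against 0.250, 0.329, 0.260 and 0.237 in WT 1 to 4. Mutant 1 thus exceeded every WT embryo in this ratio, and mutants 2, 3 and 4 lay below every WT embryo. For the paralogs Six6 and Six3, the ratio of Six6 to Six3 was 1.10, 0.656, 0.617 and 0.532 in mutants 1 to 4, against 0.683, 0.886, 0.772 and 0.952 in WT 1 to 4, with mutant 1 again above all WT embryos and the other mutants below them. The ratio of Vax2 to Vax1 ran from 0.230 to 0.860 in mutants and from 0.436 to 0.899 in WT, and the genotypes overlapped.

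General neural transcripts also differed between the embryos. The mean log2(TPM + 1) over 12 neural progenitor genes, such as Sox2, Sox3 and Nes, was 4.31, 5.34, 4.93 and 4.73 in mutants 1 to 4, against 5.08, 5.58, 5.14 and 5.20 in WT 1 to 4. All 12 were on average lower in mutants, 3 of them at an unadjusted p under 0.05, where 8.0% of all genes were. The mean over the 9 forebrain and eye field genes minus this mean was -2.15, -2.83, -2.89 and -2.64 in mutants 1 to 4, against -2.54, -2.53, -2.43 and -2.37 in WT 1 to 4. Measured in this way mutant 1 lay above every WT embryo and the other mutants below, so that relative to neural progenitor genes the genotypes overlapped for the 9 genes as a group. Mutant 1 was also the embryo with the most yolk sac endoderm RNA and the lowest neural progenitor level. All 16 yolk sac markers were higher in mutants at an unadjusted p under 0.05, where 5.55% of all genes were. Trophoblast and decidua markers summed to 64.6, 325.6, 41.9 and 14.4 TPM in mutants 1 to 4, against 24.4, 6.44, 22.9 and 5.79 TPM in WT 1 to 4, and 4 of the 8 markers were too low to be tested. None of 8 red cell markers stood at that p in either direction. The part of these differences in the results for the 9 genes was not tested.

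Lhx2 was the exception among the 9. Its log2(TPM + 1) minus the neural progenitor mean was -0.94, -0.89, -0.81 and -0.81 in mutants 1 to 4, against -0.48, -0.62, -0.64 and -0.46 in WT 1 to 4. Every mutant lay below every WT embryo in this measure, and the mutants, which had ranged from 9.35 to 20.8 TPM, lay close together. Of all 13596 genes tested, 6 (0.0441%) had all mutants below all WT embryos relative to neural progenitor genes, and Lhx2 was the 1 gene of the 9 among them. Among the others were Fezf2, a regulator of the forebrain, Nr2e1, a nuclear receptor of forebrain and retinal progenitors, the non-coding Pantr1 and the predicted gene Gm27032. These were named after their values were seen. The subtracted mean was itself lower in mutants, at 4.83 on average against 5.25 in WT. Subtracting it raises the mutant average relative to the WT average for every gene. Mutant 2, at 5.34, is lowered relative to WT 1, 3 and 4. Mutant 1, at 4.31, is raised relative to every WT embryo, so a gene must be lower still in mutant 1 to count. The small share is therefore no measure of how unusual Lhx2 is.

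Other forebrain genes, taken from a list written with earlier results of these data known, were also lower on average. Of 30 genes, 27 were tested, 26 were on average lower in mutants and 12 were lower at an unadjusted p under 0.05 (8.0% of all genes), while none was higher at that p and none passed the adjusted threshold. Emx2, of the dorsal telencephalon, was at 6.40, 10.7, 9.83 and 8.29 TPM in mutants 1 to 4, against 16.5, 14.6, 13.3 and 12.5 TPM in WT 1 to 4 (log2 fold change -0.65 ± 0.15, limma adjusted p = 0.281). Every mutant lay below every WT embryo for Emx2. Fezf2 and Fezf1, zinc finger repressors of the forebrain, were at 1.96 ± 0.680 and 5.41 ± 2.17 TPM in mutants, against 3.88 ± 0.690 and 9.32 ± 1.74 TPM in WT (SD, n = 4 each), with log2 fold changes of -0.74 and -0.73. Otx2, which is required for the whole anterior brain, had a log2 fold change of -0.24 ± 0.20 (SE; limma adjusted p = 0.581), and its levels overlapped, from 21.1 to 38.2 TPM in mutants and from 22.5 to 38.6 TPM in WT.

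Genes of the midbrain and hindbrain had another balance. Of 15 tested, 5 were on average lower and 10 higher in mutants, and their median log2 fold change was 0.08. At an unadjusted p under 0.05, 1 was lower and 2 were higher, where 8.0% of all genes tested were lower and 5.55% higher. En1, of the midbrain and anterior hindbrain, was at 9.83 ± 3.60 TPM in mutants and 6.75 ± 3.19 TPM in WT (SD, n = 4 each), and the genotypes overlapped. The mean log2(TPM + 1) over the 9 forebrain and eye field genes minus that over the midbrain and hindbrain genes was -1.43, -1.62, -1.71 and -1.96 in mutants 1 to 4, against -1.29, -0.77, -1.10 and -0.50 in WT 1 to 4. No mutant reached the lowest WT embryo in this difference. The mean over the 9 genes was already without overlap before the subtraction, at 2.04 to 2.51 in mutants and 2.54 to 3.05 in WT. The difference is therefore no separate result. Between the 30 other forebrain genes and the midbrain and hindbrain genes the difference was -0.93, -0.98, -0.83 and -1.33 in mutants 1 to 4, against -0.51, -0.38, -0.65 and -0.23 in WT 1 to 4, again without overlap. No share of all genes was worked out for either difference, and the lists were chosen with earlier results of these data known. The part of yolk sac RNA in these differences was not tested.

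**Figure D4:**
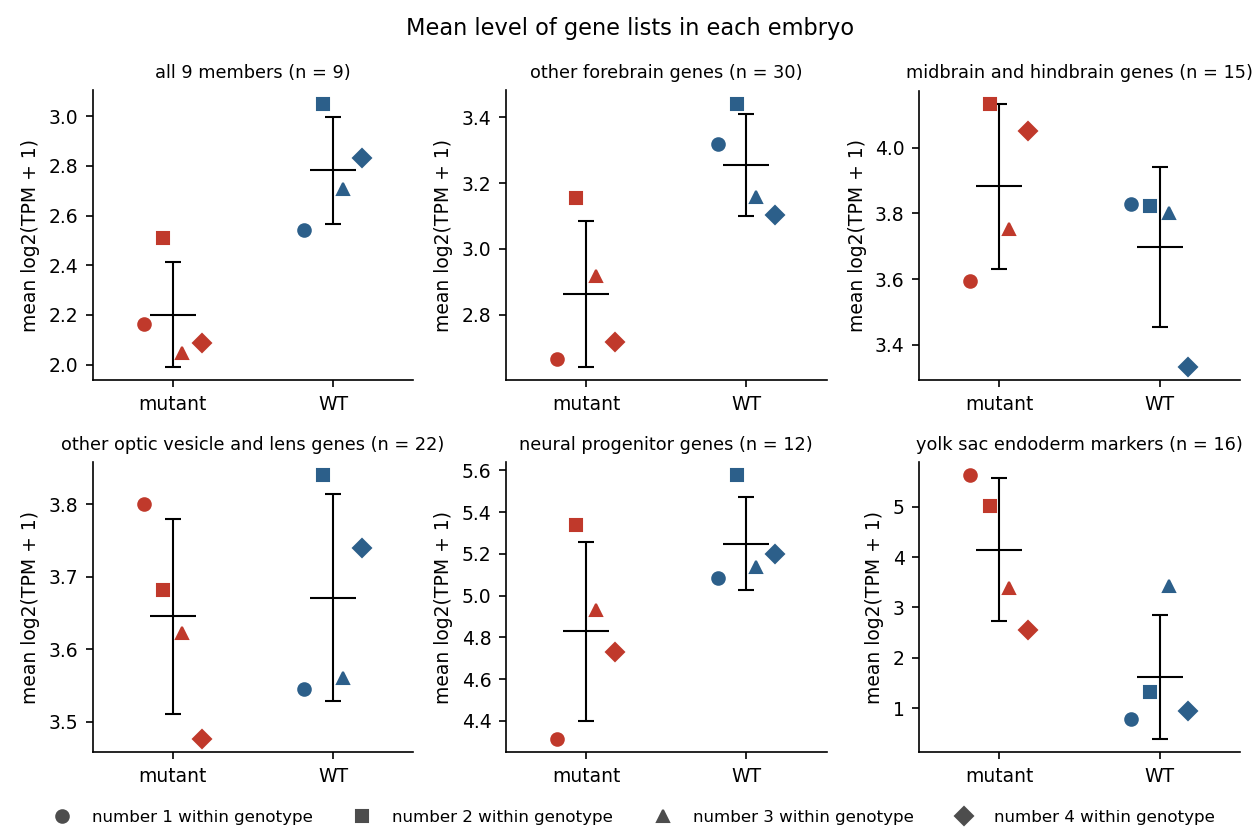
Mean log2(TPM + 1) over each gene list (vertical axes, which do not start at 0) in the 4 mutant and the 4 WT embryos, with the mean and SD; n is the number of genes in a list. The mutants lie below all WT embryos for the 9 forebrain and eye field genes, from 2.04 to 2.51 against 2.54 to 3.05, and overlap with WT for the other 5 lists.

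Later genes of the optic vesicle and of the lens had no shared direction. Of 22, 21 were tested, 10 were on average lower and 11 higher in mutants, with a median log2 fold change of 0.01. At an unadjusted p under 0.05, 0 were lower and 3 higher, where 8.0% of all genes tested were lower and 5.55% higher. Pax2, of the optic stalk, midbrain and kidney, was at 3.15 ± 1.04 TPM in mutants and 3.17 ± 0.322 TPM in WT (SD, n = 4 each), and Mitf, of the retinal pigment epithelium, at 2.64 ± 0.684 TPM in mutants and 2.38 ± 0.305 TPM in WT. Tbx5, which marks the dorsal retina but is more widely active in heart and forelimb, was at 10.8, 6.92, 7.50 and 8.24 TPM in mutants 1 to 4, against 3.69, 5.25, 3.59 and 6.09 TPM in WT 1 to 4 (log2 fold change 0.74 ± 0.18, limma adjusted p = 0.281). Of 12 heart muscle markers, 8 were higher in mutants at an unadjusted p under 0.05, where 5.55% of all genes were. The summed levels of these 12 were 2080 to 4250 TPM in mutants and 1401 to 2029 TPM in WT. Their part in the Tbx5 level was not tested.

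Signals of the anterior embryo and targets of the pathway had median log2 fold changes of -0.11 and -0.19. Of 12 signal genes, among them Shh, Fgf8, Bmp4 and Dkk1, 11 were tested and 7 were on average lower in mutants. At an unadjusted p under 0.05, 1 was lower, where 8.0% of all genes were. That gene, Smoc1, whose product binds the extracellular matrix and acts in eye development, was at 46.9 ± 6.61 TPM in mutants and 56.7 ± 4.86 TPM in WT (SD, n = 4 each). The 4 Hedgehog targets tested were all on average lower, with log2 fold changes of -0.53 for Gli1, -0.12 for Ptch1 and -0.10 for Hhip, and none of the 4 stood at an unadjusted p under 0.05. Their mean log2(TPM + 1) was 3.58, 3.72, 3.10 and 3.69 in mutants 1 to 4, against 3.66, 3.86, 3.87 and 3.71 in WT 1 to 4. Mutant 3, the lowest in Nkx2-1, Six3 and Six6, was also the lowest in this mean, but mutant 4, nearly as low in Nkx2-1 and Six6, lay within the WT range.

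Nkx2-1 and Hesx1 are also active outside the brain, and lists of other genes of those tissues were measured beside them. Of 7 thyroid and lung endoderm genes, 5 were tested, and 1 was on average lower and 4 were higher in mutants. At an unadjusted p under 0.05, 2 of the 4 were higher, where 5.55% of all genes were. Pax8, which acts with Nkx2-1 in the thyroid, was at 3.90 ± 1.39 TPM in mutants and 2.39 ± 0.564 TPM in WT (SD, n = 4 each), and Hhex, of foregut endoderm and vessels, at 3.71 ± 0.823 and 2.51 ± 0.0760 TPM in the same order. Foxa2, of the endoderm and the floor plate, had a log2 fold change of -0.20, and the adjusted p-values of the tested genes in limma were 0.299 or more. The pulmonary gene Sftpc and the thyroid gene Tg were too low to be tested, and the part of these tissues in the Nkx2-1 level was not tested. Of 6 genes of the pituitary and oral ectoderm 2 were tested, and Pitx1 had a log2 fold change of 0.10, beside 0.23 for Hesx1.

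The genes outside the 9 whose profile over the 8 embryos lay nearest to the mean profile of the 9 were Efcc1, Gm15708, Kif5c, 1500004A13Rik and Tox2. Nearness was the mean absolute difference of log2(TPM + 1) after centring each gene on its own mean, over 4991 genes with enough variation, and was 0.0715 for Efcc1 and 0.0893 for Tox2, against a median of 0.287. Kif5c, a motor protein of neurons, was at 19.9, 28.8, 19.4 and 20.3 TPM in mutants 1 to 4, against 26.1, 34.8, 25.2 and 32.0 TPM in WT 1 to 4. Of the 9 genes themselves, Six3 lay nearest to their mean profile, at 0.131, and Hesx1 farthest, at 0.419.

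Promoter windows of 7 of the 9 genes, with 9 annotated start sites, were available from RefSeq on build GRCm38.p6, and they are described because 8 of the genes were lower on average. Each window runs from 250 bases before to 50 bases after a start. The GLI-binding consensus GACCACCCA occurred on either strand in 0 of these 9 windows and in 0.253% of all 32851 windows, and the homeodomain motif TAATTA occurred in 0 of the 9 and in 5.29% of all. TAAT, the core that homeodomain proteins contact and which TAATTA contains, occurred on either strand in 5 of the 9 windows, both of Pax6 and those of Six3, Vax1 and Hesx1, and in 58.0% of all windows. The 250 bases before the start are shown for the 2 genes with separated groups whose RefSeq and GENCODE starts coincide, Nkx2-1 (chr12:56536909-56537158, minus strand) and Lhx2 (chr2:38339031-38339280, plus strand). Vax1 (chr19:59170398-59170647, minus strand) is shown too, although its groups overlapped and its GENCODE start, at 59170056, is not its RefSeq start. TAAT or its reverse complement is in capitals.
Nkx2-1: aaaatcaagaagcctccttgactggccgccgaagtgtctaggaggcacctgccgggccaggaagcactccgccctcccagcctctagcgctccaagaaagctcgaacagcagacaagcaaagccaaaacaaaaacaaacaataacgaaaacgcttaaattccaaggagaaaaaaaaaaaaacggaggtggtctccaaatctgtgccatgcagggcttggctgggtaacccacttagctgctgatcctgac
Lhx2: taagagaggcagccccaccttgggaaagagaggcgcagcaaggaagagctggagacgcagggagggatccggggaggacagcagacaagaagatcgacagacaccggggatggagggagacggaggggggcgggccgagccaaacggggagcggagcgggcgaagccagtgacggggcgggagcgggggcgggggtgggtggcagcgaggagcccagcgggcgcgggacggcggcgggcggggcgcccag
Vax1: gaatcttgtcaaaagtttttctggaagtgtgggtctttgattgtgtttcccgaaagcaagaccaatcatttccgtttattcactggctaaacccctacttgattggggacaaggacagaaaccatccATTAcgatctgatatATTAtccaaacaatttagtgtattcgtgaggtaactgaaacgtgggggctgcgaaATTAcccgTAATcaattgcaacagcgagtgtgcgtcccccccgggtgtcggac
The Vax1 sequence holds 4 matches and the other 2 sequences none. Guanine and cytosine made up 53.7% of the Nkx2-1 window, 74.7% of the Lhx2 window and 47.7% of the Vax1 window, with a median of 52.7% over all windows. A match is a run of letters and not a measured site, and regulatory elements outside these windows were not searched.

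Exons of 3 of the 9 genes overlap those of an antisense gene in GENCODE M21, and the strandedness of the counting is not given, so that shared reads cannot be told apart. Raxos1 shares 1604 of the 5846 exonic bases of Rax but was listed at 0 in 7 embryos, and 4930447C04Rik shares 192 of 4009 bases of Six6. Six3os1, which shares 106 of 5446 exonic bases with Six3, was itself at 3.98, 4.48, 2.07 and 2.24 TPM in mutants 1 to 4, against 4.86, 7.17, 5.45 and 6.18 TPM in WT 1 to 4. All mutants lay below all WT embryos for this transcript too, by a log2 fold change of -0.76 (limma adjusted p = 0.281), and mutants 3 and 4 were its lowest, as for Six6 and Nkx2-1. Gm28528, the other transcript antisense to Six3, did not exceed 0.306 TPM in any embryo.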

How the data were processed

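RNA from 8 whole mouse embryos was sequenced, 4 mutant and 4 WT, each in its own tube, with TruSeq RNA v2 libraries on a NovaSeq instrument per the labels' protocols. The authors deposited TPM per gene symbol on build GRCm38 (mm10, per the submitters' processing notes); aligner, counter, annotation release and strandedness: not given in the sources used here. All 8 columns were matched to samples by title. Genes with at least 1 TPM in at least 4 embryos (13596) were compared, mutant over WT, in limma (version 3.58.1, under R 4.3.3), which was fitted to log2(TPM + 1), genotype as the only term and empirical Bayes moderation with a trend, with two-sided tests and Benjamini-Hochberg adjustment over all genes. Fold changes on this scale understate those of low genes. The fit was tested on simulated data. Exact permutation tests covered all 70 assignments, and p-values measure the spread between these embryos.

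Whole reads were recovered from the steps of TPM with GENCODE M21 merged exon lengths, within 0.02 reads. Of 23993 genes with a value, 22482 (93.7%) came out whole with that length, 1503 with another length and 8 not at all, and all 9 genes came out whole with the merged length. Limma voom on these reads called 0 genes. Promoter sequences are from RefSeq, matched by symbol.

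The 9 genes and the lists beside them were chosen with earlier results of these data known. Named are the 9 genes, genes with the smallest p of a list (up to 4), and the 5 nearest profiles; Otx2, En1, Pax2, Mitf and the antisense genes were named after their values were seen. Some genes of the lists are not reported here by name. Alternatives were 2 further pseudocounts, no filter, a filter on the mean, median-ratio scaling, the replicate number as a block, array weights, voom, leaving out each embryo and leaving out mutants 3 and 4; leaving out mutants 1 and 2 was chosen after seeing the data.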

Additional observations from a re-analysis of the deposited data

Results flagged for a closer look

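In 22 groups of 4 embryos tested for an embryo far from the others, 3 held one, where about 1 in 20 groups does so by chance. Nkx2-1 in WT 2, at 9.89 TPM, lay far above the other WT embryos at 5.62 to 6.07 TPM, and without WT 2 its log2 fold change was -0.85. Pax6 in WT 2, at 17.6 TPM, lay far above the other WT embryos, which were between 14.2 and 14.6 TPM. The summed level of yolk sac endoderm markers in WT 3, at 270.6 TPM, lay far above the 16.5 to 43.5 TPM of the other WT embryos.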

How the results depend on the processing

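The 8 lower genes were lower and Hesx1 higher under all 18 alternatives. Of the 9 genes, 5 to 8 stood at an unadjusted p under 0.05 when 1 embryo was left out. Of all genes, from 8.52% (without WT 1, with 7 of the 9) to 22.8% (without mutant 2, with 8 of the 9) did so in either direction. Rax, Six6 or both missed that p without mutant 1, 3 or 4 or WT 2, 3 or 4, and Hesx1, higher in mutants, reached it without WT 4. Without mutants 3 and 4 there were 4 (Nkx2-1, Vax2, Rax and Lhx2), where 2.65% of all genes were lower at that p; the cause was not tested. Limma called 0 to 1 genes when 1 embryo was left out (Gm28230, without mutant 2) and 3 without mutants 3 and 4, Gsn, Prap1 and Gpx3. Without mutants 1 and 2, chosen after seeing the data, it called 3369 (24.8%), 3087 of them lower (22.7%), among which were 7 of the 9 genes, all but Rax and Hesx1, with adjusted p from 0.00341 for Nkx2-1 to 0.0268 for Six3. Over all genes, 1842 stood at an unadjusted p under 0.05, against 3511 with array weights, 3094 when mutant 2 was left out, 1213 when WT 2 was and 1158 when WT 1 was. Same-numbered embryos did not deviate together over all genes tested (correlations of same-numbered deviations -0.0618, 0.0398, -0.194 and -0.245). Whether any of them shared a litter cannot be told from this, since litters are not given. With the replicate block limma called 0 genes, and 7 of the 9 stood at an unadjusted p under 0.05, with Pax6 in place of Six6. Of all genes, 14.0% stood at that p in either direction with the block. Vax2, which stood at an unadjusted p under 0.05 under all 18 alternatives, met the main expression filter only through the WT embryos. Vax2 and Vax1 rest on few reads (6 to 64 and 17 to 87 per library), and 4 embryos per genotype limit all tests.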
